A study of Caenorhabditis elegans with 2 samples.

Results

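The genes studied here are the 63 protein-coding genes of Caenorhabditis elegans whose symbol starts with ceh-, out of 19973 protein-coding genes on the 6 chromosomes of the Ensembl annotation of WBcel235, the ce11 build. Membership went by name alone, but the group was taken up with earlier results of these data known. The data are chromatin immunoprecipitation and sequencing (ChIP-seq) of whole L4 larvae, the last larval stage, of strain OP239, with males and females pooled and the age unknown. Strain OP239 has the genotype unc-119(ed3) III; wgIs239, where wgIs239 is an inserted transgene for the nuclear hormone receptor NHR-10 tagged with eGFP. There was 1 group with 2 biological replicates, both with the same genotype, transgene and stage. No second condition was given, so no difference between conditions could be tested. NHR-10 was assayed as a transgene product in a mutant strain, and its level relative to the endogenous protein is not given in the sources used here.

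The authors deposited 4 lists of regions on ce11. The lists of replicate 1 and replicate 2 held 21319 and 22317 regions, the list from both replicates together (pooled) held 17447, and the list thresholded by the irreproducible discovery rate (optimal) held 994. The replicate and pooled lists are described as holding peaks and background, so a weak entry there need not be a bound site. Each region has a summit and a signal value of the authors, whose scale is not stated and which was used within a list only. Sequencing depth is unknown, since the lists give no read counts.

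Homeobox genes encode transcription factors that bind DNA through the homeodomain, a short helical fold. They are known for assigning body regions, as the Hox genes do, and for setting and keeping the identity of single neuron, muscle and epidermal cell types, so that many are active in few cells. The ceh symbol stands for C. elegans homeobox, and other homeobox genes carry older names such as lin-39 or unc-86. In whole larvae, a site bound in few cells and a site bound weakly in many cells cannot be told apart.

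Few ceh genes had a region at the promoter. A promoter window was taken from 1000 bp upstream to 200 bp downstream of any transcript start, and a region counted when its summit lay in it. In the optimal list 2 of 63 members had a summit there (3.17%, Clopper-Pearson 95% interval 0.387 to 11.0%), against 2.82% of the 19910 other protein-coding genes, which is close to the background. In the pooled list 8 of 63 members had one (12.7%, interval 5.65 to 23.5%), against 28.1% of the other genes. In replicate 1 there were 11 members (17.5%, interval 9.05 to 29.1%) against 32.1%, and in replicate 2 there were 16 (25.4%, interval 15.3 to 37.9%) against 31.9%. The interval of the members thus lay below the background in the pooled list and in replicate 1, and held it in replicate 2 and in the optimal list. These intervals cover only the sampling of genes, and no test of the difference was made, since the group was taken up with earlier results known.

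**Figure D1:**
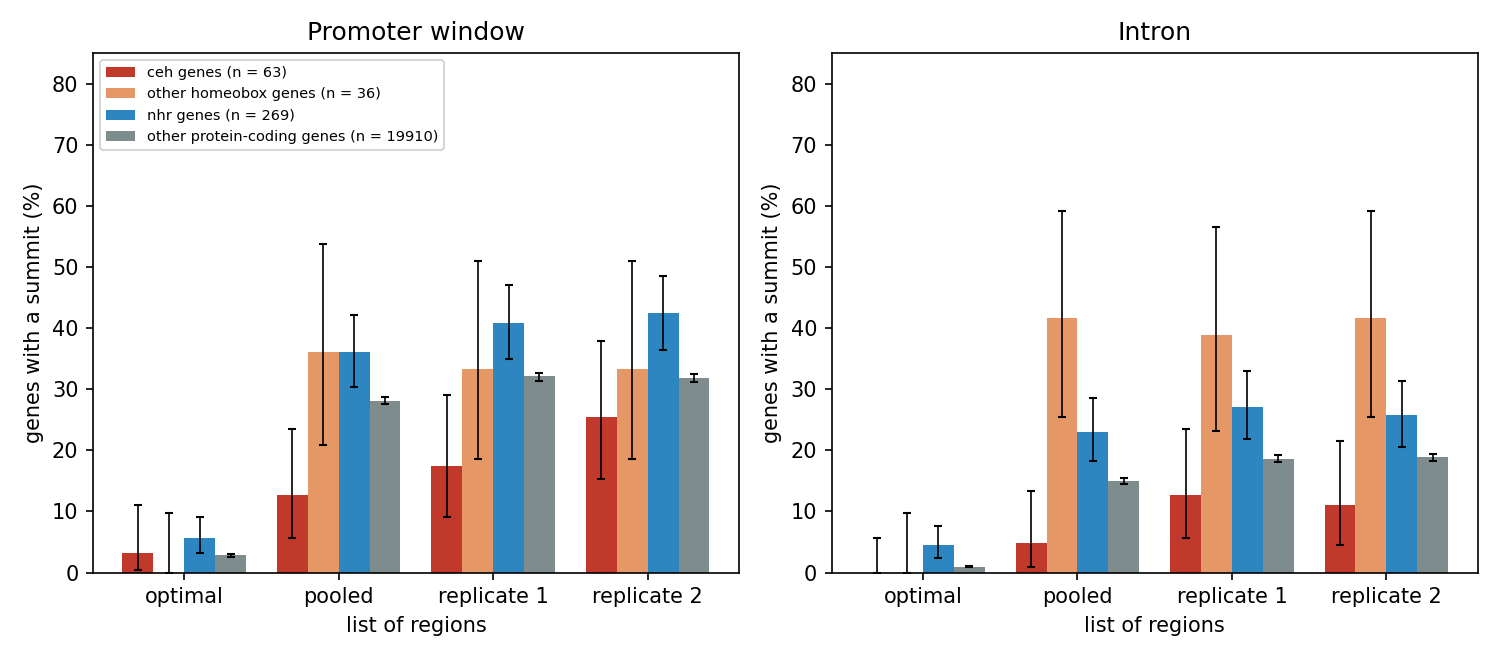
Percentage of genes with a region summit in the promoter window (left) or in an intron (right) in each deposited list, for ceh genes, other homeobox genes, nuclear hormone receptor genes (nhr) and all other protein-coding genes. Bars are shares and error bars Clopper-Pearson 95% intervals over genes; the ceh bar of the pooled list stands at 12.7% for promoters and 4.76% for introns, against 28.1% and 15% of other protein-coding genes.

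The share of ceh genes fell behind that of other genes as weaker pooled regions were added. The few members among the strongest regions cannot tell an equal share from a lower one there, so where the difference begins was not settled. Among the 500 strongest pooled regions, 1 member (1.59%) had a summit in its window, against 1.48% of other genes. With the 994 strongest, as many as the optimal list holds, the counts equalled those of the optimal list in every gene group (2 ceh genes and 561 other genes). The optimal counts are thus not separate evidence from the pooled ones. With the 2000 strongest there were 3 members (4.76%) against 5.28%. With the 4000 strongest the members still numbered 3 while the other genes reached 9.29%, and with the 8000 strongest there were 5 members (7.94%) against 15.9%. The number of pooled members depended on the window. It was 16 (25.4%, against 36.6% of other genes) with 2000 bp upstream, and 13 (20.6%, against 31.9%) when the whole region had only to touch the window.

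**Figure D2:**
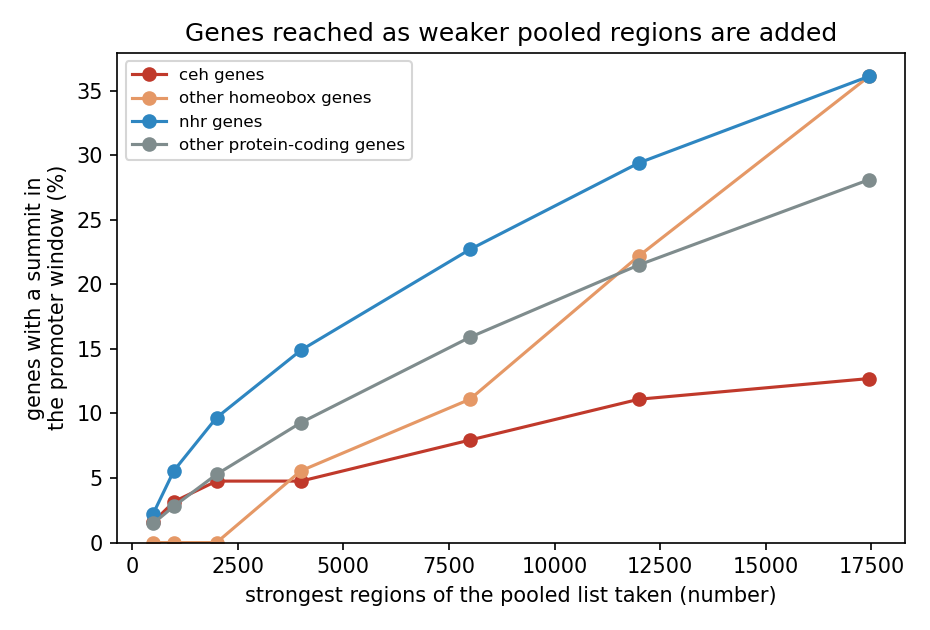
Percentage of genes with a summit in the promoter window (vertical axis) as the number of strongest pooled regions taken grows (horizontal axis), for ceh genes, other homeobox genes, nhr genes and other protein-coding genes. The ceh line runs with the other genes to 2000 regions (4.76 and 5.28%), where it rests on 3 members. It ends at 12.7%, where the other genes end at 28.1%.

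The member with the strongest promoter region was ceh-38, a CUT homeobox gene of the ONECUT class, whose factors act in pan-neuronal gene expression. Its region at chrII:6951325-6951748 had a signal of 76.96 and ranked 312 in the pooled list. The summit lay 11 bp downstream of the outermost start, in the first part of the transcript, and also in the window of malt-1, the neighbour on the other side. The region had a signal of 41.62 and rank 265 in replicate 1, and a signal of 32.29 and rank 702 in replicate 2, with summits at most 10 bp from the pooled one. When each replicate was cut to its 994 strongest entries, ceh-38 was the only member kept in both (1 of 63, 1.59%), against 1.55% of other genes. Replicate 2 held a further weak region 763 bp upstream, ranked 12256, with no counterpart in the window in replicate 1.

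The other member in the optimal list was ceh-20, which encodes the PBX (Extradenticle) type homeodomain partner of Hox proteins. Its optimal region at chrIII:6978772-6979195 had a signal of 57.72, ranked 660 and lay 900 bp upstream of the start, between genes, in no other window. It ranked 437 in replicate 1 (signal 35.42) and 2583 in replicate 2 (signal 19.7), so only replicate 1 had it among its 994 strongest. A second, weaker pooled region overlapped it and had its summit 699 bp upstream of the start, at rank 7937. Both replicates also split the site into a pair of summits, the weaker ranking 4566 in replicate 1 and 6760 in replicate 2.

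The next strongest was ceh-99, which was not in the optimal list, where the lowest signal was 49.64. Its strongest pooled region had a signal of 40.19, rank 1699 and a summit 954 bp upstream of the start, and a neighbouring one had a signal of 34.56, rank 2462 and a summit 661 bp upstream. The replicates favoured different ends of this pair. The best region of replicate 1 had a signal of 22.45, ranked 1552 and lay 651 bp upstream, within 10 bp of the weaker pooled summit, whereas the best of replicate 2 had a signal of 29.71, ranked 861 and lay 967 bp upstream, within 13 bp of the stronger. Both pooled summits also lay in the window of srh-70, a chemoreceptor gene of the srh family, and ceh-99 did not have the nearest start.

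**Figure D3:**
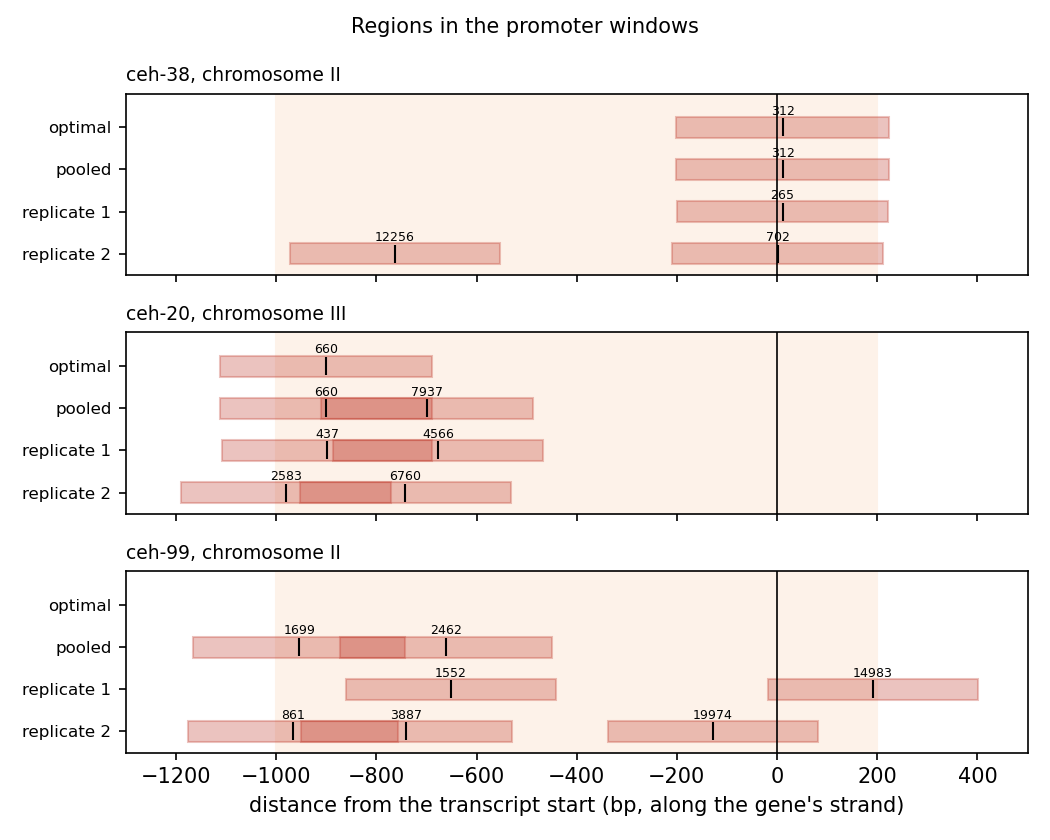
Regions in the promoter windows of ceh-38, ceh-20 and ceh-99, drawn to scale by distance from the transcript start in bp, with 1 row for each deposited list. Bars span the regions, ticks mark summits, numbers above them are ranks in that list and the shaded span is the window; the ceh-38 region sits on the start at nearly the same place in all 4 lists, with a further weak one upstream in replicate 2, and the regions of ceh-20 and ceh-99 sit 651 to 980 bp upstream, apart from weak ones near the start of ceh-99.

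The bases at these sites are shown because they are the strongest promoter sites of ceh genes, together with ceh-79 and ceh-88, the next in rank. They are 101 bases of the plus strand of ce11, centred on the pooled summit, except for ceh-38, where they end just upstream of the start because the summit lies in an exon. Capitals mark any match on either strand to 4 motifs, which do not overlap in the windows shown. The first, GATAA, is the core of sites for GATA factors such as those of the intestine. The second, AGGTCA, is a core bound by many nuclear receptors, and the third, TAATTA, is a core of many homeodomain sites. The last, CTGCGTC, was added after the sequences had been seen. The windows are chrII:6951425-6951525, chrIII:6978934-6979034, chrII:12518977-12519077, chrV:13301515-13301615 and chrIV:17328790-17328890, in this order.
ceh-38: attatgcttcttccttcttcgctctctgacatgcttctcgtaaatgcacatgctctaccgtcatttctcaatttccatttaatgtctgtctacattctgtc
ceh-20: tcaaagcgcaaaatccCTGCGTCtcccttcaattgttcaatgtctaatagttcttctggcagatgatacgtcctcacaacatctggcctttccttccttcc
ceh-99: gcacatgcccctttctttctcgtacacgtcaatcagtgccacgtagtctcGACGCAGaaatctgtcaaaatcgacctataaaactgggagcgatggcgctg
ceh-79: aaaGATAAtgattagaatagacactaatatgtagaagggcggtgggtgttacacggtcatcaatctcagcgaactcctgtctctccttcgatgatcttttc
ceh-88: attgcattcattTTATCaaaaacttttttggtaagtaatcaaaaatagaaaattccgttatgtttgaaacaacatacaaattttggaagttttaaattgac

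The sites of ceh-20 and ceh-99 each held 1 CTGCGTC, on opposite strands. In windows of the same length around all pooled summits 2.57% held that sequence, and around optimal summits 9.86%. Since that sequence was added after these windows had been seen, its presence in them cannot be weighed against those shares. The sites of ceh-79 and ceh-88 each held 1 GATAA, which was present in 25.7% of pooled and 28.5% of optimal windows. None of the 5 windows shown held AGGTCA, which 3.25% of pooled and 3.52% of optimal windows held, or TAATTA, which 4.04% and 1.51% held. The GC content was 39.6% at ceh-38, 45.5% at ceh-20, 50.5% at ceh-99, 41.6% at ceh-79 and 22.8% at ceh-88, with a median of 37.6% over pooled and 44.6% over optimal windows. These matches describe the letters and do not show which factor binds.

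The remaining 5 members with a pooled promoter region had ranks between 6780 and 13482, with ceh-79 and ceh-88 above the median signal of all pooled regions, 20.45, and ceh-43, ceh-2 and ceh-81 below it. The region of ceh-79 lay 268 bp upstream of the start (signal 22.66, rank 6780) and was found in both replicates at ranks 11725 and 11710. The region of ceh-88 lay 348 bp upstream (signal 22.12, rank 7250) and was found in replicate 1 only, at rank 6399. The region of ceh-43, the Distal-less type gene, lay 125 bp upstream (signal 19.1, rank 10257). It ranked 3363 in replicate 1 and had no overlapping region in replicate 2. The region of ceh-2, the empty spiracles type gene of pharyngeal neurons, lay 694 bp upstream (signal 18.93, rank 10458) and was found in replicate 2 only, at rank 12117. The region of ceh-81 lay 973 bp upstream inside an intron of btb-9 (signal 16.94, rank 13482), and overlapped regions at rank 16480 in replicate 1 and 16639 in replicate 2, with the summit of replicate 1 250 bp away. The median signal of the best promoter region over the 8 members was 22.39, and that over the other genes with a pooled promoter region was 22.51.

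Few members had a promoter region in both replicates. A promoter region in at least 1 replicate was found for 22 members (34.9%, against 44.4% of other genes), and in both for 5 (7.94%, interval 2.63 to 17.6%), against 19.5% of other genes. These 5 were ceh-20, ceh-38, ceh-79, ceh-81 and ceh-99. Having one in both needed a summit in the window in each list, not at the same place. As a share of the genes with a region in either replicate, 5 of 22 ceh genes (22.7%) and 43.9% of other genes had one in both. The 22.7% rests on few genes, and no interval or test was made for it. Replicate 1 alone supplied 6 members and replicate 2 alone 11, while 28.3% and 27.9% of the other genes with a region in either replicate had it in replicate 1 alone and replicate 2 alone. The 6 in replicate 1 alone had ranks from 3363 to 21087, and the 11 in replicate 2 alone from 9586 to 21963. The median rank of the replicate 2 promoter regions was 14982.5 over the 16 members and 8460 over other genes, whereas in replicate 1 it was 6399 over the 11 members and 8144 over other genes.

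**Figure D4:**
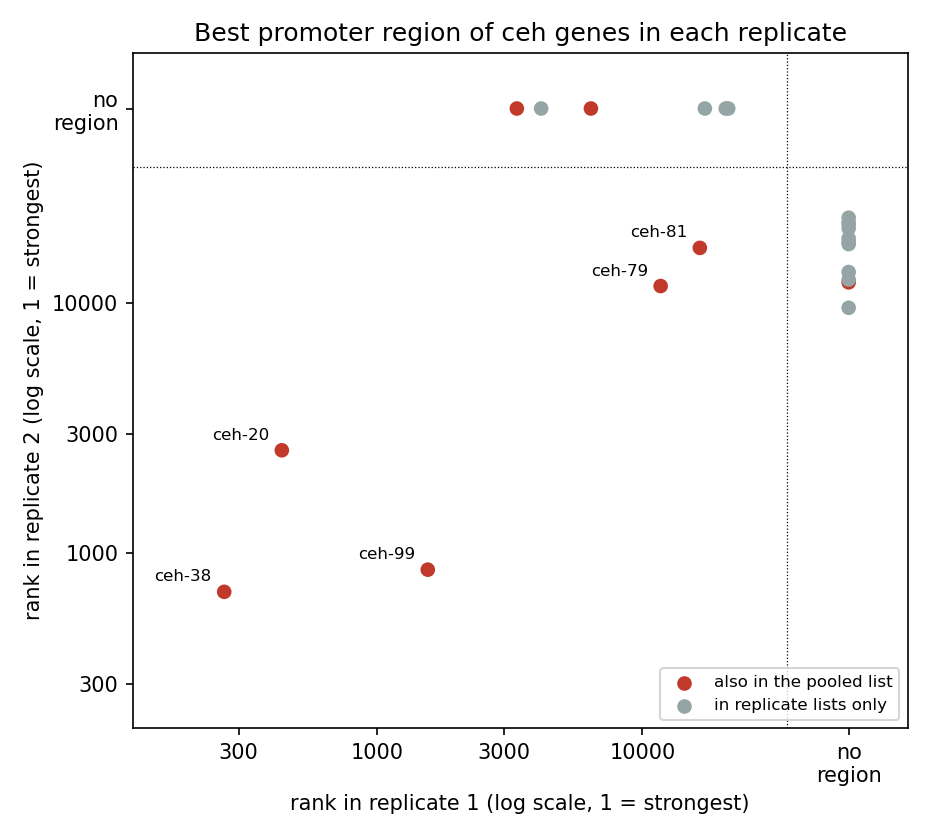
Rank of the best promoter region of each ceh gene in replicate 1 (horizontal) and replicate 2 (vertical), both on log scales, for the 22 members with one in at least 1 replicate. Points beyond the dotted lines had no region in that replicate, and red points are members that also had one in the pooled list; 5 members have a rank in both lists, with ceh-38 nearest to the strong end.

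Intronic regions of ceh genes were few in the pooled list. A region was called intronic when its summit lay in an intron of a transcript and in no exon of that gene. No member had an optimal summit in an intron (0 of 63, interval 0 to 5.69%), against 0.994% of other genes. In the pooled list 3 members had one (4.76%, interval 0.993 to 13.3%), against 15%. In replicate 1 there were 8 members (12.7%, interval 5.65 to 23.5%) against 18.6%, and in replicate 2 there were 7 (11.1%, interval 4.59 to 21.6%) against 18.9%. The interval lay below the background in the pooled list only, and the other 3 intervals held it. The pooled number became 5 when the replicate 1 list, cut to the length of the pooled list, took its place. The median total intron length was 1317 bp in ceh genes and 720 bp in other genes. Per 100 kb of intron, ceh genes held 2.24 pooled summits and other genes 15.7. In replicate 1 these densities were 8.2 and 20, and in replicate 2 they were 6.71 and 20.2.

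The 3 members with a pooled intronic region were ceh-18, ceh-17 and ceh-38. ceh-18, a POU homeobox gene known for its part in gonadal sheath cells, had one 1560 bp downstream of the nearest transcript start, which is internal to the gene, with a signal of 20.87 and rank 8314. It was found in both replicates, at rank 12479 in replicate 1 and 7987 in replicate 2. The region in ceh-17, a Phox2 type gene of the ALA and SIA neurons, had a signal of 16.74 and rank 13842, and overlapped a region of replicate 1 at rank 12048 and none of replicate 2. The intronic region of ceh-38 had a signal of 15.13 and rank 17104, and was found in replicate 2 only, at rank 9569.

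In the pooled list, members with long introns also had few intronic regions. When all protein-coding genes were split evenly into 3 classes by intron length, 32 members fell in the class with the longest introns. Of these, 1 (3.12%) had a pooled intronic summit, against 32.4% of the 6623 other genes in that class. The replicate lists, in which more of the members had an intronic region, were not split by intron length. ceh-100, with 17267 bp of intron, had no region in its introns or window in any list. ceh-37, an Otx type gene of sensory neurons with 9140 bp of intron, had 3 intronic regions in replicate 1, the best at rank 4154. That best region also counted as a promoter region, since it lay 239 bp upstream of a start internal to the gene. Another promoter region of ceh-37 in replicate 1 lay 21 bp downstream of a start, at rank 13836. ceh-37 had no region in replicate 2 or in the pooled list.

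**Figure D5:**
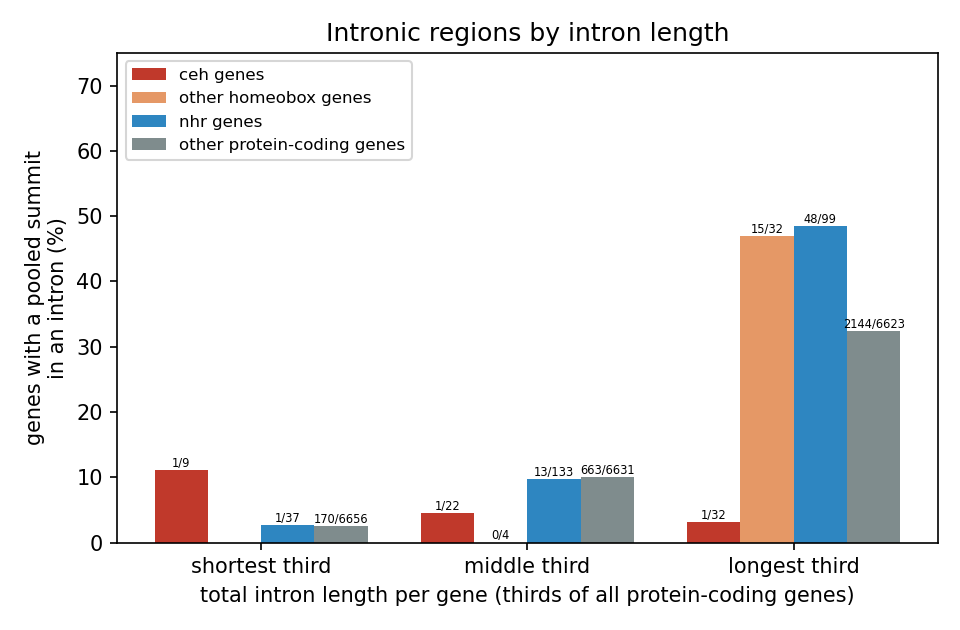
Percentage of genes with a pooled summit in an intron (vertical axis), for genes split into 3 classes by total intron length (horizontal axis) and by gene group; the numbers on the bars are genes with a summit over genes in the class. In the class with the longest introns the ceh bar stands at 1 of 32 and that of other homeobox genes at 15 of 32.

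By class of homeodomain, the 8 members with a pooled promoter region were 1 ONECUT gene, 1 PBX gene, the Distal-less and empty spiracles type genes ceh-43 and ceh-2, and 4 genes left without a class. Classes were assigned to 35 members from general knowledge, and 28 were left without one. The classes hold few genes each. Of other protein-coding genes 55.2% had a region in some list and 28.1% a pooled promoter region, and no difference of a class from these shares was tested. Of the 6 ONECUT members ceh-38 alone had any region, and ceh-21, ceh-39, ceh-41, ceh-48 and ceh-49 had none in any list. All 3 PBX genes had a region in some list, but those of ceh-40 and ceh-60 were weak. ceh-40 had a promoter region in replicate 2 only, at rank 20869. ceh-60, which acts with UNC-62 on yolk protein genes in the intestine, had intronic regions at rank 19926 in replicate 1 and 21782 in replicate 2, at different places. All 6 paired-like members had a region in some list, ceh-8, ceh-10, ceh-17, ceh-36, ceh-37 and ceh-45, and 0 of the 6 had a pooled promoter region. Those of ceh-8, a Rax type gene, were a promoter region in replicate 2 at rank 13326 and an intronic one in replicate 1 at rank 16139. ceh-10, a Vsx type gene of AIY and CAN neurons, had a promoter region at rank 12432 and an intronic one at rank 19588, both in replicate 2. The Otx type gene ceh-36 had an intronic region in replicate 2 at rank 15567, and the goosecoid type gene ceh-45 one in replicate 1 at rank 16445.

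Of the 6 NK genes, ceh-22, which acts in pharyngeal muscle, had a promoter region in replicate 1 at rank 21087, and ceh-27 had regions in replicate 2 only. Its best was intronic, at rank 4871. The other 4 NK genes, ceh-1, ceh-24, ceh-28 and ceh-51, had none. Of the 3 sine oculis type genes, ceh-33 had a promoter region in replicate 2 at rank 20889, and ceh-32 and ceh-34 had none. No region was found at the labial type Hox gene ceh-13, the LIM gene ceh-14, the Bar type genes ceh-30 and ceh-31, the engrailed type gene ceh-16, ceh-5, the Mnx type gene ceh-12 or the POU gene ceh-6. In all, 33 of the 63 members had no region in the window or an intron in any of the 4 lists. Besides those named so far they were ceh-7, ceh-19, ceh-23, ceh-53, ceh-54, ceh-63, ceh-76, ceh-83, ceh-84, ceh-86, ceh-87, ceh-89 and ceh-90. A region in some list, in the window or an intron, was found for 47.6% of ceh genes (interval 34.9 to 60.6%) and 55.2% of other genes.

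The other members had regions in 1 replicate list each, none of them pooled. In replicate 2 these were promoter regions of ceh-9, ceh-74, ceh-75 and ceh-82, at ranks from 17225 to 21963, and an intronic region of ceh-93 at rank 22152. In replicate 1 they were a promoter region of ceh-91 at rank 17213 and intronic regions of ceh-62 at rank 21072 and ceh-92 at rank 15898. The neighbours ceh-57 and ceh-58 shared 1 region of replicate 1, at rank 20636, which lay in the window of ceh-57 and in an intron of ceh-58.

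The pooled promoter regions of ceh genes were all on autosomes, in windows of 1000 bp upstream. X carried 18 of the 63 members (28.6%) and 13.6% of other protein-coding genes. The share with a pooled promoter region was 0 of 18, against 33.2% of other genes on X, while 8 of the 45 autosomal members had one (17.8%), against 27.3% of other autosomal genes. With 2000 bp upstream 4 X members had one, ceh-1, ceh-63, ceh-90 and ceh-93. At that setting 36.6% of other genes on all chromosomes had one, and the share of other X genes alone was not taken. The summit at ceh-63 lay in an exon of that gene, 265 bp downstream of the nearest start. In the replicates, 1 X member (5.56%) had a promoter region in replicate 1 and 2 (11.1%) had one in replicate 2, against 36% and 37.2% of other X genes. Weighted to the members' chromosomes, the share of other genes with a pooled promoter region was 29.2%.

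The space upstream of ceh genes was longer at the median. The median gap to the next protein-coding gene upstream was 1805 bp for ceh genes and 936 bp for other genes. With all genes split evenly into 3 classes by this gap, a pooled promoter region was present in 2 of 15 ceh genes (13.3%) with the shortest gaps, 2 of 17 (11.8%) with middle gaps and 4 of 31 (12.9%) with the longest, against 31.1%, 27.6% and 25.6% of other genes. The median GC content of the promoter windows was 36.2% in ceh genes and 35% in other genes. In the class of highest GC content 6 of 29 members (20.7%) had a pooled region, against 33.9% of other genes, and in the lowest 1 of 18 (5.56%) against 21.6%.

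The distance to the nearest optimal summit, at any place, was close to that of other genes, with a median of 42425 bp for ceh genes and 47273.5 bp for others. After ceh-38 and ceh-20 the nearest were 4749 bp from ceh-5 and 8348 bp from ceh-1. The strongest pooled region gained by going to 2000 bp upstream was also at ceh-5, with a signal of 43.85 and rank 1393. It lay 1563 bp upstream, in an exon of eat-16, a gene for a regulator of G protein signalling. The other 7 members gained there had ranks from 8437 to 16114.

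Homeobox genes with other names were set beside the ceh genes, with no test of the difference. A list of 36 such genes, drawn up from general knowledge and not complete, had no optimal summit in a promoter window or an intron. Among them were lin-39, unc-86 and lin-11. In the pooled list 13 of the 36 (36.1%, interval 20.8 to 53.8%) had a promoter summit and 15 (41.7%, interval 25.5 to 59.2%) an intronic one. The ceh shares of 12.7% and 4.76% lay below these intervals, although the ceh interval for promoters, up to 23.5%, overlapped that of these genes. In replicate 2 they had a promoter summit in 33.3% (interval 18.6 to 51%) and in both replicates in 16.7% (interval 6.37 to 32.8%), and the ceh shares of 25.4% and 7.94% lay inside these intervals. In replicate 1 the ceh promoter share of 17.5% lay below theirs (18.6 to 51%). The ceh intronic shares also lay below, at 12.7% in replicate 1 (23.1 to 56.5%), 11.1% in replicate 2 (25.5 to 59.2%) and 3.17% in both (16.3 to 48.1%). In replicate 1 the ceh intervals overlapped theirs at both places. These genes have longer introns than ceh genes, with a median of 3434 bp, yet they also held 17 pooled summits per 100 kb of intron, against 2.24 in ceh genes. In the class with the longest introns, 15 of 32 (46.9%) had a pooled intronic summit. Some have several starts and so more promoter window. Per 100 kb of window these homeobox genes held 25.8 pooled summits, ceh genes 10.7 and other protein-coding genes 25.5. The summits of these homeobox genes were unevenly spread, so that both densities lean on few genes. A single gene held 5 of their 27 pooled intronic summits, and up to 4 pooled summits lay in the windows of a single gene. The same summit could count in a window and in an intron. The 269 genes with an nhr- symbol, which encode nuclear hormone receptors as nhr-10 does, had an optimal promoter summit in 5.58%, a pooled promoter summit in 36.1% (interval 30.3 to 42.1%) and a pooled intronic summit in 23.0% (interval 18.2 to 28.5%).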

How the data were processed

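Per the labels, 2 biological replicates of strain OP239 at the L4 stage were profiled by ChIP-seq against eGFP-tagged NHR-10. Per the text deposited with the files, the authors made the replicate and pooled lists from the alignments and 1 further file. That file was the same for each list, so both replicates shared it, and it was taken here to be the control. It also went into their control-normalized signal tracks, and what it holds is not described there. How peaks were called, reads aligned and the optimal list cut off is not given in the sources used here. The deposited signal of the authors, in column 7, has no stated scale and was used to rank regions within a list. Reads per sample are not given, so depth and its precision are unknown. The ce10 lists were not used.

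Genes, starts and introns came from Ensembl release 115 and bases from the WBcel235 assembly of RefSeq. Every annotated transcript of a gene gave a start, and 1 summit could count for several genes. It could also count as both a promoter and an intronic summit of the same gene. Positions are 1-based. A pair of pooled entries that shared limits but not summits counted as separate regions. Python 3.11.15, pandas 2.3.3 and scipy 1.17.1 were used, and the assignment was tested on simulated summits.

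All 63 members could be named, with full values for those with an optimal summit or the highest pooled signals. Of 36 genes given a homeobox class, 35 were in the annotation; ceh-44 has no values here. The members and lists were chosen with earlier results of these data known, so no set test was made.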

Additional observations from a re-analysis of the deposited data

How the results depend on the processing

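Of 39 alternatives, 28 left a count within 1.5 times, or the median within the range of the members, and 11 moved it. Not all of the 28 could have moved. Settings that only narrowed the count of 0 optimal intronic summits, and those without X, had to give the same number. The range for the median was wide, so that a median of 57.72 counted as unmoved. The 28 are thus no measure of how stable the results are. The 2 members with an optimal promoter summit became 1 (ceh-38) with 500 bp upstream and 1 with the 497 strongest optimal regions. Single replicates were cut to the length of the list they replaced. In place of the optimal list, each gave 2 members, ceh-20 and ceh-38 without replicate 2, but ceh-38 and ceh-99 without replicate 1. The 8 members with a pooled promoter summit became 4 with 500 bp upstream, 16 with 2000 bp upstream, 13 with whole regions and 3 with the 5000 strongest regions, where the shares of other genes were 21%, 36.6%, 31.9% and 11.0%. In each of these, and with single replicates cut to the pooled length (9 to 10 members) or the nearest start, the ceh share lay below that of other genes. Without X, added after seeing the data, the number stayed at 8. It could not change, since no member on X had a promoter summit in the pooled or optimal list. The 3 members with a pooled intronic summit became 1 with whole regions inside an intron and 0 with the 5000 strongest regions, and 4 to 5 with single replicates cut to the pooled length. No alternative gave an optimal intronic summit. The median signal of 22.39 became 10.64 to 15.59 with single replicates, whose scale differs from that of the pooled list. With the 5000 strongest regions it was 57.72, over the 3 members left. The cause of these changes was not tested beyond the number of regions and bases that each setting admits. No paired analysis was possible because there is 1 group. With 63 genes and 8 pooled members, the intervals given are wide. They cover only the sampling of genes, and not the spread between replicates. They also treat genes as independent, although neighbours such as ceh-57 and ceh-58 shared a region. Depth is unknown.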
